A study of Mus musculus with 14 samples.

Results

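Zfp36, Zfp36l1, Zfp36l2, Btg1, Btg2 and Btg3 were followed in satellite cells, the stem cells that repair muscle, across 14 RNA-seq libraries. They were taken by gene identifier from both deposited count tables, and all 6 were found among the 49671 genes of each table. Zfp36, Zfp36l1 and Zfp36l2 encode related zinc finger proteins that bind RNA, and Btg1, Btg2 and Btg3 belong to the BTG/TOB family of antiproliferative genes.

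ZFP36 (tristetraprolin) and its relatives ZFP36L1 and ZFP36L2 bind AU-rich elements in the 3′ untranslated region of an mRNA and recruit deadenylases of the CCR4-NOT complex, which shortens the life of that mRNA. Their own mRNAs carry such elements, and they are held inactive by phosphorylation through the p38 and MK2 kinases. BTG1 and BTG2 bind the CCR4-NOT deadenylase subunits CNOT7 and CNOT8, speed the removal of poly(A) tails and slow cell division. Zfp36 and Btg2 are early response genes, and in satellite cells ZFP36 is known to act on the mRNA of the myogenic regulator Myod1.

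Fresh satellite cells were sorted from resting muscle (hind-limbs, pectoral and triceps) of the strain C57BL/6J, at 1000 cells per library. The gate took cells with integrin B1 and CXCR4 on their surface that lacked Sca1, the blood markers CD45, CD11b and Ter119 and the endothelial marker CD31. In the first dataset, 4 libraries labelled FosGFP+ and 4 labelled FosGFP- came from FosGFP mice 4 months old, sorted by the green fluorescence that reports Fos. In the second, 3 libraries labelled FoscKO, from mice with a conditional knockout of Fos, and 3 labelled Control came from mice 6 months old. The Cre driver and the deleted exons are not given in the sources used here, and the series text names 4 mice for the first dataset and 3 for the second, where it lists FosGFP+ in the gate of FoscKO and of Control alike. The labels do not say which mouse each library came from, so the p-values measure the spread between these libraries only. In such bulk samples, fewer cells that express a gene and less RNA of it per cell cannot be told apart.

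Fos, which checks the labels, went against them in the first dataset, where it was lower in FosGFP+, and in the second did not differ between FoscKO and Control beyond the spread of their libraries. In the first dataset, Fos stood at 4586 ± 1050 CPM (counts scaled to a common library size; SD, n = 4) in the libraries labelled FosGFP+ and at 10921 ± 2123 in those labelled FosGFP- (log2 fold change -1.25 ± 0.21 SE; edgeR adjusted p = 9.33e-04). In the second, Fos stood at 8442, 2876 and 3805 CPM in the libraries labelled FoscKO and at 5044, 5025 and 4733 in Control (0.03 ± 0.39 SE; edgeR adjusted p = 0.996). Counts over a whole gene do not show whether an exon was deleted, and FoscKO replicates 2 and 3 were below all Control libraries while replicate 1 was above them. Without FoscKO replicate 1 the change of Fos was -0.56 (edgeR adjusted p = 0.707), and it was below 0 in 7 of 10 other settings. All directions that follow are therefore between labels.

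Library totals in genes ran from 2652230 to 10241655 counts. Reads spread evenly over the genome, judged from 1745 receptor genes, made up 13.2% to 19.8% of gene counts in FosGFP- and 6.53% to 10.8% in FosGFP+. In FoscKO they made up 4.04% to 11.9% and in Control 9.24% to 10.7%. FoscKO replicate 1 stood apart, with 30.18% of its reads in genes against 15.86% and 22.68% in the other FoscKO libraries, and FosGFP- replicate 4 had the lowest count and the highest even background. Summed leukocyte markers were at 49.9 to 96.3 CPM in FosGFP+ and 79.7 to 119 in FosGFP-, beside 8099 to 11959 and 4321 to 6776 for satellite cell markers. Most of that sum is Sdc4, at 5416 ± 1247 against 2069 ± 796 CPM (SD, n = 4), and Vcam1, at 1940 ± 472 against 842 ± 122. Pax7 (-0.44), Calcr (-0.51) and Cdh15 (-0.09) were below 0 and not called by edgeR with TMM, where 4 of 10 satellite cell markers were called higher. With total counts Sdc4 and Vcam1 were called higher and Calcr and Pax7 lower. With TMM factors from genes of at least 50 CPM, Sdc4 and Vcam1 were higher and Myf5, Calcr, Pax7 and Cdh15 lower. Of all 20698 genes tested in the first dataset, 10.3% were higher and 1.85% lower with TMM. With total counts 1029 were higher and 2087 lower, and with TMM factors from genes of at least 50 CPM 712 and 5307.

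The sequences that bear on these genes are the short pieces of their own mRNAs that the ZFP36 family can read and the promoters that early response factors can read. The 7-letter core of an AU-rich element, written TATTTAT in DNA letters, was searched on the mRNA strand of each 3′ untranslated region (GENCODE M21, GRCm38). It was found 3 times in the 774 bases of Zfp36, 3 times in the 1835 of Zfp36l1, 3 times in the 1822 of Zfp36l2, 1 time in the 2199 of Btg2, 2 times in the 439 of Btg3 and 0 times in the 4166 of Btg1. Of 21045 genes, 26.2% have at least 1 match, and 96.2% have fewer than 3. Longer regions hold more matches by their length, and 61.8% of genes with a region about as long as that of Btg1 have at least 1. A match is a description of the letters and not evidence of binding. One site is shown for each gene that has any, with the core in capitals.
Zfp36 site: tatgacgacttTATTTATtgtattaagat
Zfp36l1 site: ttatcaaaacgTATTTATtgccaaactat
Zfp36l2 site: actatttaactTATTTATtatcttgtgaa
Btg2 site: aaatgaagagcTATTTATacatgtttttt
Btg3 site: agtatataagtTATTTATacagaaggaca

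The promoters of Zfp36, Btg2 and Btg1 are shown because these are the genes that differed between the reporter groups. Each is a window of 300 bases around the RefSeq start site (GRCm38.p6), 5′ to 3′ on the gene's own strand, with motif letters in capitals. The motifs searched on both strands were the AP-1 site TGACTCA, the cAMP response element TGACGTCA, the EGR site GCGGGGGCG and the CArG box, which serum response factor binds. These motifs do not overlap one another in the windows shown.
Zfp36 promoter, chr7:28379179-28379478, minus strand: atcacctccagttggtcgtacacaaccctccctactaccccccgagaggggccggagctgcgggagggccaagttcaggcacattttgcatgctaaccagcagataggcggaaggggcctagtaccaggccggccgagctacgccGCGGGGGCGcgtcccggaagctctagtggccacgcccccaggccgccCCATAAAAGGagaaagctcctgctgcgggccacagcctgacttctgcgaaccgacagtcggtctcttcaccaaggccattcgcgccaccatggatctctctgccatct
Btg2 promoter, chr1:134079106-134079405, minus strand: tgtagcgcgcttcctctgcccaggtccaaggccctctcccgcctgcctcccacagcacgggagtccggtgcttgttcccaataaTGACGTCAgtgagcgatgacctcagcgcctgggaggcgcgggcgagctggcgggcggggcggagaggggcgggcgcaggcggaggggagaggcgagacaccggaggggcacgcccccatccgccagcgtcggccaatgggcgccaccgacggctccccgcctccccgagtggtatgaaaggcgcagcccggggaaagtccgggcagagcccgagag
Btg1 promoter, chr10:96616751-96617050, plus strand: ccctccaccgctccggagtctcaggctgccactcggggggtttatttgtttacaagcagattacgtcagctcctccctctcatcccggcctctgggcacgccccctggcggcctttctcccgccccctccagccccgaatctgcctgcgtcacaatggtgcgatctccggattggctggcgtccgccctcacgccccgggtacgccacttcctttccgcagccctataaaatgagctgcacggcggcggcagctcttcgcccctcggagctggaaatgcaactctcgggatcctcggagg
The Zfp36 window holds an EGR site, GCGGGGGCG, at bases -105 to -97 from the start site and a CArG box at -58 to -49. The Btg2 window holds a cAMP response element, TGACGTCA, at -166 to -159. The Btg1, Zfp36l1 and Btg3 windows held none of the 4 motifs, and the AP-1 site, to which Fos binds with its Jun partners, was in none of the windows of these genes. Of 32851 RefSeq promoters of this length, 5.2% hold the AP-1 site, 1.79% the cAMP response element, 2.91% the EGR site and 1.63% the CArG box. RefSeq gave a promoter for 5 of the 6 genes, with Zfp36l2 the exception.

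In GRCm38, Zfp36 (ENSMUSG00000044786) lies on chromosome 7 from 28376784 to 28380253, Zfp36l1 (ENSMUSG00000021127) on chromosome 12 from 80107754 to 80113013 and Zfp36l2 (ENSMUSG00000045817) on chromosome 17 from 84183931 to 84187947. Btg1 (ENSMUSG00000036478) lies on chromosome 10 from 96617006 to 96622809, Btg2 (ENSMUSG00000020423) on chromosome 1 from 134075170 to 134079120 and Btg3 (ENSMUSG00000022863) on chromosome 16 from 78332637 to 78377192. The libraries do not keep the strand. The antisense gene Gm26669 shares 1672 exonic bases with Zfp36l1, and 51.3% of the 50-base windows of Zfp36l1 lie in it, so Zfp36l1 may be undercounted. Btg3 shares 695 bases with Cxadr and 17.8% of its windows with the pseudogene Gm7334. Btg2 shared no window with another gene, and the shares for Zfp36, Zfp36l2 and Btg1 were 4.21%, 1.61% and 2.49%.

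Per kilobase of exon, Btg2 was the most abundant of these mRNAs and Zfp36 came next, in 14 of 14 libraries. These lengths join the exons of all annotated transcripts, and for Zfp36 they form 1 block of 3470 bases that covers the whole gene. A shorter mRNA would raise Zfp36 per kb, so the order of Btg2 and Zfp36 rests on this length. In CPM, Zfp36 was above Btg2 in each Control library. In Control, Btg2 stood at 702 ± 7.09 CPM per exonic kb (SD, n = 3) and Zfp36 at 614 ± 13.9. Btg1 followed at 146 ± 14.4, then Zfp36l2 at 81.1 ± 8.77 and Zfp36l1 at 65.3 ± 12.4, whose ranges overlapped, and Btg3 at 0.92 ± 0.209. Zfp36 was above Btg1, and Btg1 above Zfp36l1 and Zfp36l2, in 14 of 14 libraries, while Zfp36l2 was above Zfp36l1 in 8. On this scale Btg2 and Zfp36 were both at or above the 99.6 percentile of tested genes in each group. The ranges of Btg2 and Zfp36 overlapped in FosGFP+ and FoscKO and did not in FosGFP- and Control.

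**Figure D1:**
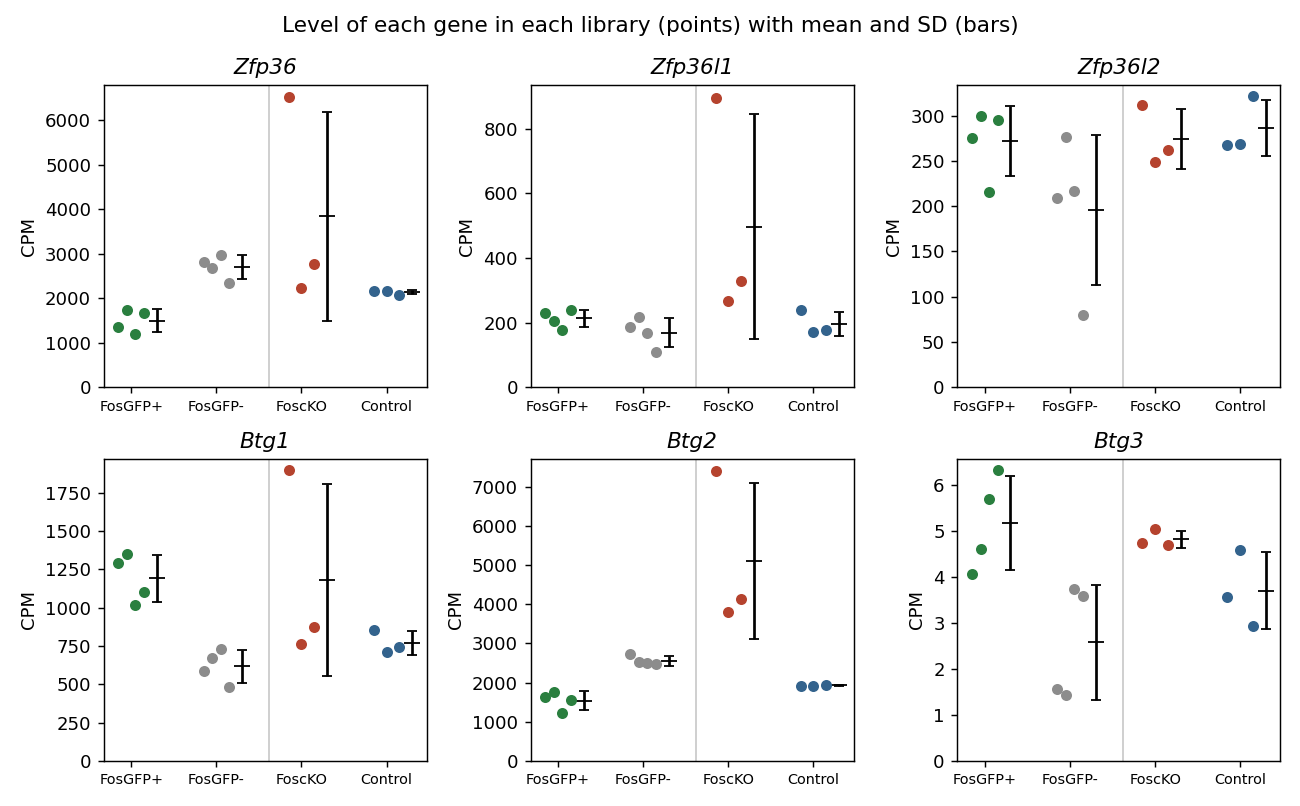
Level of each of the 6 genes in each library, in CPM (y axis, from 0), by group (x axis); points are libraries and bars the mean with its SD. Btg2 stood near 1925 in all 3 Control libraries and above it in all 3 FoscKO libraries, and FoscKO replicate 1 was the highest library for Zfp36, Zfp36l1, Btg1 and Btg2.

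The first comparison asks how satellite cells positive for the Fos reporter differ from negative ones. In the libraries labelled FosGFP+, Zfp36 and Btg2 were lower and Btg1 was higher, while Zfp36l1, Zfp36l2 and Btg3 did not pass the test. Of all 20698 genes tested by edgeR, 12.1% were called either way, 10.3% higher and 1.85% lower, so 3 of 6 genes called, with 1 higher and 2 lower, is to be read against those shares. Zfp36 and Btg2 were lower and Btg1 higher, past the threshold, in each of the 10 other settings and with each of 8 libraries left out. The scaling of the libraries matters for other genes here: the main one is TMM over all tested genes, total counts is another, and the 50 CPM scaling takes TMM factors from genes of at least 50 CPM.

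Zfp36 stood at 1361, 1743, 1204 and 1672 CPM in the FosGFP+ libraries and at 2819, 2682, 2958 and 2332 in the FosGFP- libraries. Every FosGFP+ library was below every FosGFP- library. The means were 1495 ± 256 and 2698 ± 269 CPM (SD, n = 4 each), 1.8-fold lower (log2 fold change -0.85 ± 0.17 SE; edgeR adjusted p = 0.00381). Over the other settings the change ran from -1.45 to -0.75.

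Btg2 stood at 1630, 1765, 1215 and 1544 CPM in FosGFP+ and at 2731, 2523, 2486 and 2464 in FosGFP-. It was lower in 4 of 4 FosGFP+ libraries, and the FosGFP- libraries differed among themselves by a factor of only 1.11. The means were 1538 ± 234 and 2551 ± 122 CPM (SD, n = 4 each), 1.66-fold lower (-0.73 ± 0.16 SE; edgeR adjusted p = 0.00768). Its range over the other settings was -1.33 to -0.62.

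Btg1, a relative of Btg2, went the other way. It stood at 1289, 1349, 1019 and 1105 CPM in FosGFP+ and at 586.1, 673.6, 728.9 and 480 in FosGFP-. The lowest FosGFP+ library was above the highest FosGFP- library. The means were 1190 ± 154 and 617 ± 109 CPM (SD, n = 4 each), 1.93-fold higher (0.95 ± 0.18 SE; edgeR adjusted p = 0.0024). Its size depended on the scaling: over the other settings it ran from 0.37 to 1.05, with the smallest value in the 50 CPM scaling.

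Zfp36l1 stood at 228.1, 205.1, 178.3 and 239.1 CPM in FosGFP+ and at 184.9, 217.1, 166.5 and 108.1 in FosGFP-, and the groups overlapped (0.33 ± 0.21 SE; edgeR adjusted p = 0.329). Zfp36l2 stood at 275.5, 299.9, 215.9 and 295.1 against 208.7, 276.2, 217.1 and 80.05, also overlapping (0.47 ± 0.28 SE; edgeR adjusted p = 0.292). FosGFP- replicate 4 was the lowest library for both. Without it the changes were 0.18 and 0.22. The direction of Zfp36l1 flipped with total counts (-0.04), in the 50 CPM scaling (-0.24) and with library sizes that leave out the 20 most abundant genes (-0.09), and that of Zfp36l2 in the 50 CPM scaling (-0.08).

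Btg3 was close to the limit of these counts. Its libraries held 17, 22, 20 and 29 reads in FosGFP+ and 7, 5, 13 and 12 in FosGFP-. Reads spread evenly over the genome would give its exons 12.6 to 15.7 reads in FosGFP+ and 15.2 to 17.4 in FosGFP-, so Btg3 was at or below this background in all FosGFP- libraries. The groups did not overlap, at 5.16 ± 1.03 and 2.58 ± 1.25 CPM (SD, n = 4), and the difference did not pass the test (1.00 ± 0.50 SE; edgeR adjusted p = 0.212). In FoscKO it had 35, 27 and 39 reads and in Control 19, 34 and 18, against a background of 13.4 to 18.9 and 15.9 to 21.4. Together with Zfp36, Btg1 and Btg2 it makes 4 of 6 genes whose FosGFP+ and FosGFP- libraries did not overlap, where 19.3% of all genes tested did not (12.9% higher and 6.45% lower).

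**Figure D2:**
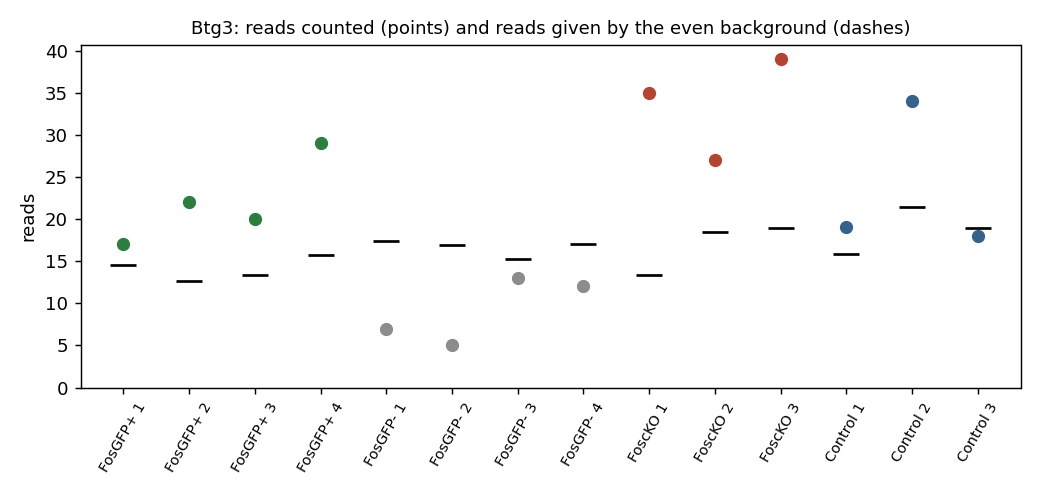
Reads counted for Btg3 in each of the 14 libraries (points; y axis, reads) and the reads that an even background would give its exons (dashes). The 4 FosGFP- points, at 5 to 13 reads, lie below their dashes.

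**Figure D3:**
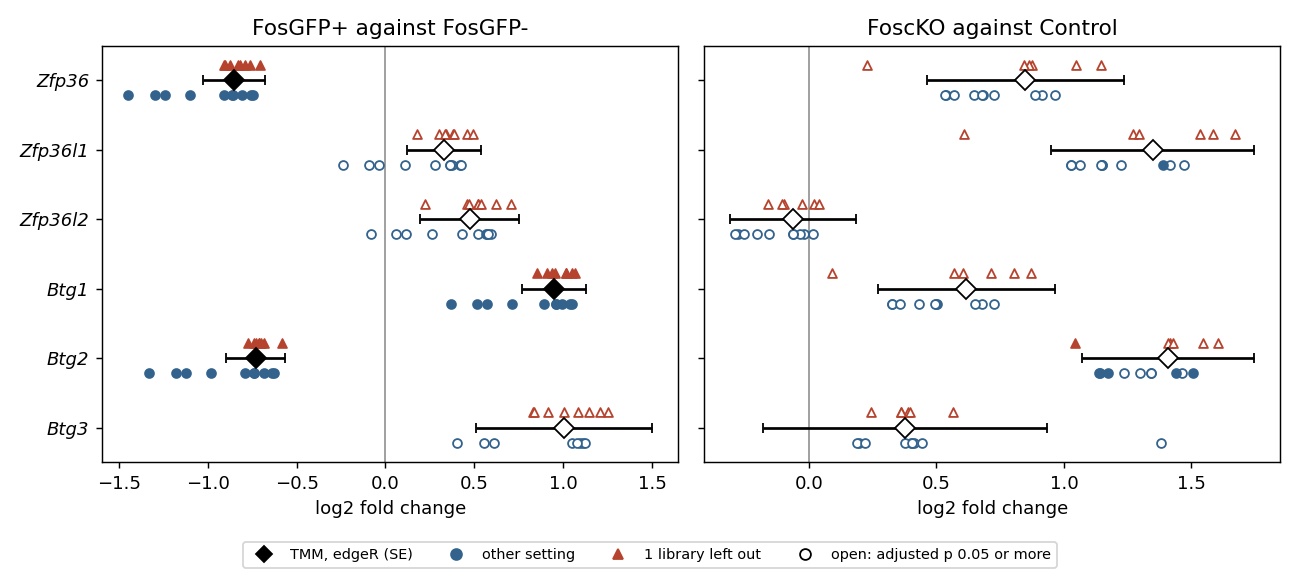
Log2 fold change (x axis) of each gene (y axis) in both comparisons: diamonds are TMM with edgeR and its SE, circles the other settings, triangles the fits with 1 library left out, and open symbols have an adjusted p of 0.05 or more. Zfp36 and Btg2 lie to the left in the first comparison and to the right in the second, where Btg2 is filled in some settings.

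Ratios between genes of one library do not depend on scaling, and they are given here per exonic kb with no test. The exonic lengths used set the size of each ratio and not whether the groups overlap. How many ratios between other genes would not overlap was not computed, and 19.3% of single genes did not. The ratio of Zfp36 to Zfp36l1 was 5.14 to 7.32 in the FosGFP+ libraries and 10.6 to 18.6 in the FosGFP- libraries. That of Zfp36 to Zfp36l2 was 5.02 to 5.91 against 9.88 to 29.6, where FosGFP- replicate 4 set the top and the next library was at 13.9. The groups did not overlap for either ratio, nor for Btg1 to Btg2, at 0.372 to 0.436 in FosGFP+ and 0.101 to 0.152 in FosGFP-. On the log2 scale that ratio was -1.31 ± 0.10 in FosGFP+ and -3.01 ± 0.27 in FosGFP- (SD, n = 4 each), a difference of 1.70. Zfp36l1 and Zfp36l2 kept to a ratio of 0.807 to 1.59 in these 8 libraries, and the groups overlapped.

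**Figure D4:**
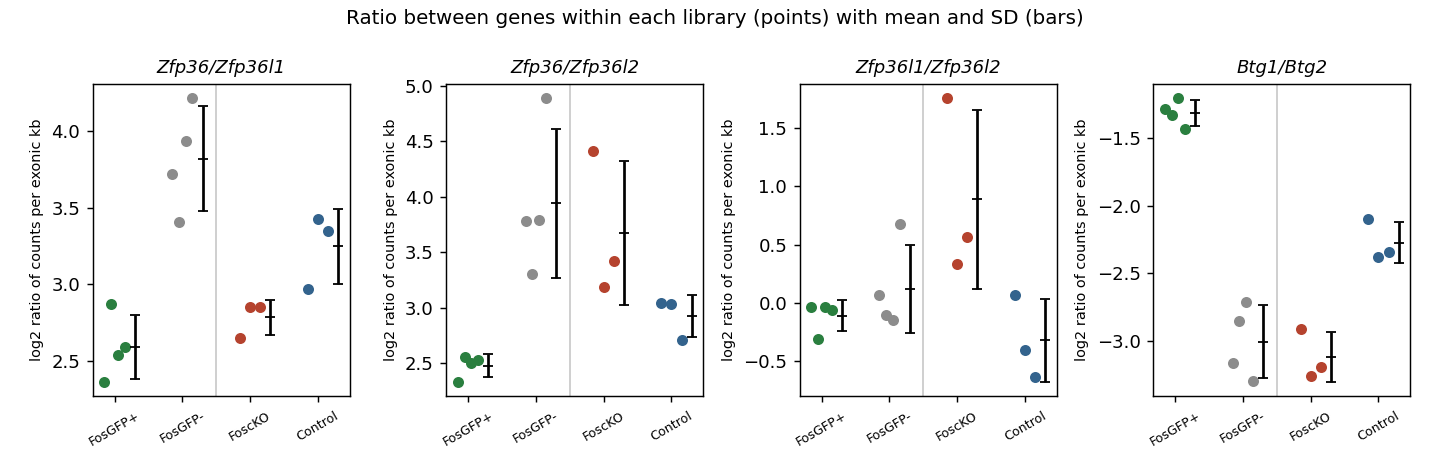
Log2 ratio of counts per exonic kb (y axis) between pairs of genes within each library, by group (x axis); points are libraries and bars the mean with its SD. Btg1 to Btg2 sits near -1.31 in FosGFP+ and near -3.01 in FosGFP-, and is lower in FoscKO than in Control.

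The second comparison asks what changed in satellite cells labelled FoscKO. By edgeR, 0 of 21885 genes were called, and 1208 had an unadjusted p under 0.05, among them Btg2, Zfp36l1 and Zfp36. Called genes were 0% of those tested, so the members can only be described by their libraries and by other tools: DESeq2 called 69 genes and limma-voom 10. Groups did not overlap for 12.2% of genes, 5.75% higher and 6.47% lower in FoscKO. Of these 6 genes, 4 did not overlap and were higher in FoscKO: Zfp36, Zfp36l1, Btg2 and the sparsely counted Btg3.

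Btg2 showed the clearest difference of the 6. It stood at 7406, 3794 and 4136 CPM in the FoscKO libraries and at 1910, 1917 and 1947 in the Control libraries. The Control libraries lay within a factor of 1.02, and the lowest FoscKO library was above all of them. The means were 5112 ± 1994 and 1925 ± 19.4 CPM (SD, n = 3 each; log2 fold change 1.41 ± 0.34 SE), with an edgeR p of 9.05e-04, rank 66 of all genes, and an edgeR adjusted p of 0.297. Its change stayed above 0 in 10 of 10 other settings, from 1.14 to 1.51, and passed the threshold in 5 of them, with adjusted p from 0.0082 to 0.485 over the 10 (edgeR, limma-voom or DESeq2). Without FoscKO replicate 1 it was 1.04 ± 0.19 SE (edgeR adjusted p = 0.0288). In the authors' deposited table Btg2 is 1 of 69 genes listed, at 1.29 ± 0.30 (SE) with an adjusted p of 0.00839.

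Zfp36 stood at 6524, 2229 and 2760 CPM in FoscKO and at 2163, 2154 and 2075 in Control. FoscKO replicate 2 was only slightly above the highest Control library, and replicate 1 was far above the others. The log2 fold change was 0.85 ± 0.39 SE (edgeR adjusted p = 0.89), and 0.23 without replicate 1. Zfp36l1 stood at 896.9, 265.8 and 329.2 CPM against 238, 172 and 175.9. All 3 FoscKO libraries exceeded Control, again with replicate 1 far above (1.35 ± 0.40 SE; edgeR adjusted p = 0.609), and without it the change was 0.61. Zfp36l1 was called with no filter on low counts (1.39; edgeR adjusted p = 0.00439).

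Btg1 and Zfp36l2 did not separate the FoscKO libraries from Control. Btg1 stood at 1901, 763.8 and 872.6 CPM in FoscKO and at 854.6, 710.4 and 740.2 in Control (0.62 ± 0.35 SE; edgeR adjusted p = 0.914), and at 0.09 without FoscKO replicate 1. Zfp36l2 stood at 311.7, 248.8 and 262.2 against 267.6, 269 and 321.9, the flattest of the 6 (-0.06 ± 0.25 SE; edgeR adjusted p = 0.98). FoscKO replicate 1 had the highest level of Zfp36, Zfp36l1, Btg1 and Btg2 and also of Fos.

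Within libraries, the ratio of Btg1 to Btg2 was 0.105 to 0.133 in FoscKO and 0.193 to 0.233 in Control, with no overlap. The log2 ratio was -3.12 ± 0.19 against -2.27 ± 0.15 (SD, n = 3 each). FoscKO replicate 1, at -2.91, was the nearest to Control, beside -3.26 and -3.19 in replicates 2 and 3. The ratio of Zfp36 to Zfp36l2 was 9.11 to 21.3 in FoscKO against 6.56 to 8.22 in Control, and that of Zfp36l1 to Zfp36l2 was 1.26 to 3.4 against 0.645 to 1.05. Zfp36 to Zfp36l1 was 6.27 to 7.23 against 7.83 to 10.8. None of these ratios overlapped between the groups. FoscKO replicate 1 set the top for Zfp36 to Zfp36l2, at 21.3 beside 9.11 and 10.7 in replicates 2 and 3. It did so too for Zfp36l1 to Zfp36l2, at 3.4 beside 1.26 and 1.48. How many ratios between other genes would not overlap was not computed, and 12.2% of single genes did not.

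Markers of mature muscle fibre moved beside these values. All 9 fibre markers were below 0 in FoscKO with TMM, at a median of -1.23, and 0 of 9 were called by edgeR. Their summed level was 385 to 1461 CPM in FoscKO against 1274 to 2596 in Control. Ckm and Myh4 were called lower with total counts, in the 50 CPM scaling and without the 20 most abundant genes. In these settings 34, 33 and 34 of all 21885 genes tested were lower. Summed satellite cell markers were at 6005 to 10635 CPM against 5771 to 7965, and leukocyte markers at 44.7 to 81.6 against 53.2 to 75.3. In the first dataset 1 of 7 fibro-adipogenic markers, Smoc2, was lower in FosGFP+, at 7.18 ± 3.55 against 104 ± 77.6 CPM (SD, n = 4). Their summed level there was 302 to 671 CPM in FosGFP+ and 515 to 1002 in FosGFP-, and 1 of 8 pericyte markers, Cspg4, was lower. With total counts and in the 50 CPM scaling 3 fibro-adipogenic markers were lower, Smoc2, Pi16 and Pdgfra. Of 7 endothelial markers 0 were above 0 and 0 were called with TMM, at a median of -0.57 and a summed level of 170 to 209 CPM in FosGFP+ and 179 to 266 in FosGFP-, while 2 were called lower with total counts and 6 in the 50 CPM scaling. Of all 20698 genes tested in the first dataset, 383 were lower with TMM, 2087 with total counts and 5307 in the 50 CPM scaling. The part of any of these cell types in the levels of Zfp36 and Btg genes was not tested.

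The relatives that were not read as members, Tob1, Tob2 and Btg4, were not called by edgeR with TMM in either dataset. In FosGFP+ all 3 were called lower in the 50 CPM scaling, and Tob1 also without the 20 most abundant genes. Of all 20698 genes tested, 5307 were lower in the first of these settings and 2918 in the second. Tob1, a larger BTG/TOB protein that also binds the deadenylase, stood at 153 ± 46.1 CPM in FosGFP+ and 177 ± 40.4 in FosGFP- (SD, n = 4; -0.21 ± 0.23 SE; edgeR adjusted p = 0.58). Zfp36l3 was not tested, as its counts were at or near 0.

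The counts for the lists that follow are to be read against all 20698 genes tested, of which 10.3% were higher and 1.85% lower with TMM. With total counts 1029 were higher and 2087 lower, and in the 50 CPM scaling 712 and 5307. Without the 20 most abundant genes 945 were higher and 2918 lower. The deadenylase list holds deadenylases, other CCR4-NOT subunits and poly(A)-binding proteins, and 5 of its 16 genes were higher in FosGFP+ and 0 lower. Their median was 0.44, beside -0.18 over all genes tested and 0.57 over the 4002 genes of at least 50 CPM. Cnot7, a catalytic subunit that BTG proteins bind, stood at 101 ± 18.1 against 56.1 ± 12.5 CPM (SD, n = 4; 0.85 ± 0.21 SE; edgeR adjusted p = 0.0147), and Pabpc1, which coats the poly(A) tail, at 177 ± 21.5 against 100.3 ± 24.7 (0.82 ± 0.21 SE; 0.0153). Cnot8, the other subunit that BTG1 and BTG2 bind, was not higher, at 36.6 ± 5.33 against 39.7 ± 5.66 CPM (-0.12 ± 0.21 SE, edgeR adjusted p = 0.747). It was called lower in the 50 CPM scaling. Decapping and exonuclease genes had 5 of 15 higher and 0 lower, including Lsm3 (1.01 ± 0.22 SE) and Dcp1a (0.92 ± 0.25 SE), at a median of 0.44. These calls rested on the scaling. With total counts 0 genes of the deadenylase list were higher and 3 lower, and 0 decapping genes were higher and 1 lower. The 50 CPM scaling gave 4 lower genes of the deadenylase list, 3 lower decapping genes and none higher.

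Other regulators that bind AU-rich or 3′ elements were higher in 4 of 15 cases and lower in 0, at a median of 0.44, below the 0.57 of all genes of at least 50 CPM. Hnrnpd, Upf1 and Elavl1 were among them. Elavl1 encodes HuR, which stabilizes mRNAs with AU-rich elements, and it stood at 252 ± 12.6 against 142 ± 11.6 CPM (SD, n = 4; 0.83 ± 0.16 SE; edgeR adjusted p = 0.00293). With total counts 3 of these regulators were higher and 1 lower, and in the 50 CPM scaling 1 and 2.

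The kinases, phosphatase and binding proteins that set the phosphorylation of ZFP36 were higher in 8 of 11 cases and lower in 0, at a median of 0.88. Map2k3, which activates p38, stood at 1049 ± 145 against 346 ± 136 CPM (SD, n = 4; 1.60 ± 0.23 SE), and Mapkapk2, the MK2 kinase that phosphorylates ZFP36, at 418 ± 74.6 against 154 ± 36.5 (1.44 ± 0.21 SE), both with an edgeR adjusted p of 4.12e-04. Ppp2ca, the catalytic subunit of the phosphatase PP2A, rose by 1.03 ± 0.18 SE (edgeR adjusted p = 0.00165) and the 14-3-3 gene Ywhag by 1.34 ± 0.22 SE (9.90e-04). With total counts 6 of the list were higher and 2 lower, and in the 50 CPM scaling 4 and 2, the lower ones being Map2k6 and Dusp1. Dusp1, a phosphatase of p38, was at -0.43 with TMM (edgeR adjusted p = 0.0918).

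Of 30 mRNAs reported elsewhere as targets of the ZFP36 family, 21 were tested in the first dataset, 9 were higher in FosGFP+ and 0 lower, at a median of 0.98. Myod1 rose by 1.94 ± 0.21 SE and Myc by 1.64 ± 0.18 SE, with edgeR adjusted p of 1.14e-04 and 1.33e-04. The hypoxia factor gene Hif1a rose by 1.47 ± 0.20 SE (edgeR adjusted p = 2.55e-04) and Plaur, the urokinase receptor gene, by 1.65 ± 0.23 SE (3.37e-04). With total counts 7 targets were higher and 0 lower. In the 50 CPM scaling 6 were higher and 3, Ier3, Bcl2 and Ccnd1, lower. Levels of an mRNA do not show its rate of decay, which was not measured here.

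In the second dataset 0 of 22 tested targets were called by edgeR, and the directions were mixed, with 15 above 0. Myod1 stood at 459 ± 66.0 CPM in FoscKO and 1329 ± 355 in Control (SD, n = 3; -1.53 ± 0.30 SE; edgeR adjusted p = 0.118), with no overlap. The cytokine gene Lif stood at 97.6 ± 34.1 against 24.8 ± 9.83 CPM (1.98 ± 0.34 SE) and the chemokine gene Ccl2 at 1075 ± 515 against 243 ± 87.5 (2.14 ± 0.38 SE), both with an edgeR adjusted p of 0.0918. With total counts Lif and Ccl2 were called higher and Myod1 and Plaur lower, where 12 of all 21885 genes tested were higher and 34 lower. The deadenylase, decapping, AU-rich element, phosphorylation and BTG partner lists had 0 genes called by edgeR with TMM, at medians from 0.11 to 0.42 beside -0.04 over all genes tested and 0.24 over those of at least 50 CPM.

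**Figure D5:**
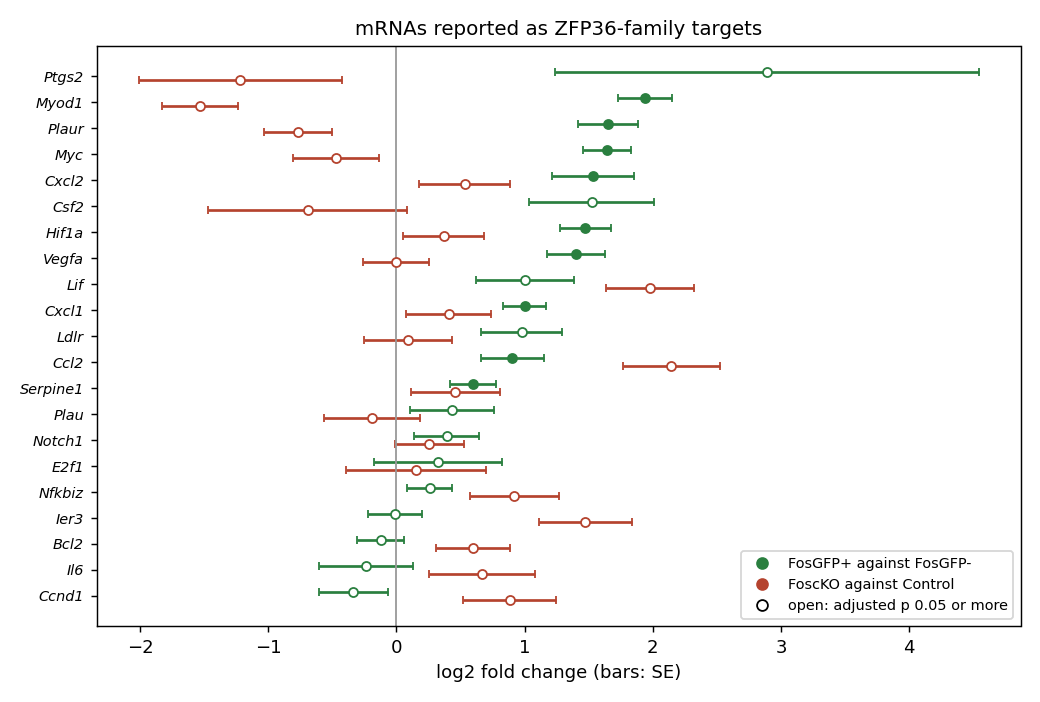
Log2 fold change with its SE (x axis) of 21 mRNAs reported as ZFP36-family targets and tested in both datasets (y axis), in FosGFP+ against FosGFP- (green) and FoscKO against Control (red); open symbols have an edgeR adjusted p of 0.05 or more. The 9 filled symbols are all green and all to the right of 0.

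Of 8 tested partners and readouts of BTG proteins, 1 was higher in FosGFP+ and 0 lower with TMM. With total counts Foxo1 was called lower, without the 20 most abundant genes Foxo1 and Ccnd1, and in the 50 CPM scaling Foxo1, Ccnd1 and Ccne1. Cdkn1a, which encodes the cell cycle inhibitor p21, stood at 699 ± 108 against 340 ± 53.1 CPM (SD, n = 4; 1.04 ± 0.18 SE; edgeR adjusted p = 0.00131), and it was also called higher with total counts and in the 50 CPM scaling. Prmt1, an arginine methyltransferase that binds BTG proteins, was at 0.64 ± 0.22 SE (edgeR adjusted p = 0.0753).

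Genes whose levels followed those of each gene across the 14 libraries were sought among 7073 genes of at least 20 CPM, by Pearson's r of log2 CPM centred within each dataset. The libraries share their depth and their group, and these values are descriptions. Closest to Zfp36 were Junb (r = 0.959), Id3 (0.958) and Irf1 (0.951), and closest to Btg2 were Id3 (0.935), Spry1 (0.9) and Ints3 (0.894). In the first dataset Spry1 had r of only 0.614, and in the second 0.99. Btg1 was followed most closely by Cdkn1a (0.984), Klf9 (0.97) and Srrm1 (0.97). Rhob (0.937), Egr2 (0.931) and Rhbdf2 (0.919) were closest to Zfp36l1, and Myo1e (0.951), Tgfbr3 (0.935) and Ulk1 (0.931) to Zfp36l2, though Myo1e and Tgfbr3 had r of only 0.452 and 0.192 in the second dataset. Rhob and Egr2 were at 0.796 and 0.731 in the first dataset and at 0.973 each in the second. Among the genes described here, Zfp36 and Btg2 went together in both datasets (r = 0.959 and 0.866), whereas Zfp36 and Btg1 were at -0.76 in the first and 0.984 in the second. These r include the difference between the groups of each dataset. In the second, FoscKO replicate 1 was far above the other libraries for Zfp36, Btg1 and Btg2, and r without it was not computed. Btg3 was below the level this search needed.

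In the authors' deposited table for the first dataset, which lists 3422 genes with adjusted p up to 0.0499, Btg1 is at 1.01 ± 0.20 (SE), Zfp36 at -0.72 ± 0.20 and Btg2 at -0.60 ± 0.18, with signs turned to FosGFP+ minus FosGFP-. The adjusted p-values given there are 1.36e-05, 0.00279 and 0.00788.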

How the data were processed

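RNA of sorted satellite cells was measured in 14 libraries, grouped by the labels. Libraries were made with SMART-Seq v4, a kit that keeps no strand, and Nextera XT, and read on a HiSeq, per the labels' protocols. The submitters' processing notes name the build GRCm38, limma, DESeq2 1.20.0, HTSeq 0.6.1 and STAR 2.5.0c, without roles. The authors deposited raw counts per Ensembl gene in 2 tables of 49671 genes, and 5 HTSeq lines that name no gene were left out of library sizes. The authors also deposited comparison tables with log2 fold changes, p-values and adjusted p-values, given reference over test and sign-turned here; 14 per-library columns in them match no label and were not used.

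From the counts, each dataset was fitted apart with edgeR 4.0.16 (filterByExpr, TMM, robust quasi-likelihood F-test, two-sided, no covariate; R 4.3.3), Benjamini-Hochberg over all genes tested, called at an adjusted p under 0.05. CPM use TMM library sizes. The even background is reads per exonic kb over 1745 receptor genes times a gene's exonic length. Of the identifiers, 49412 were found in GENCODE M21. The alternatives were DESeq2 size factors, total counts, a 50 CPM scaling (TMM factors from genes at or above 50 CPM), library sizes without the 20 most abundant genes, counts less the even background, no filter, a mean of at least 5 CPM, limma-voom (3.58.1), DESeq2 1.42.0, the replicate block and each library left out. The fit was tested on simulated data, and the outcome of that test is not reported here. Replicates were compared pairwise and none repeated another. The members and lists were chosen with earlier results of these data known. Named were the 6 members, Fos, up to 4 tested genes of each list by adjusted p, and for each member the 3 genes with the highest correlation. Tob1, Cnot8, Prmt1, Dusp1, Map2k6, Ier3, Bcl2, Ccnd1, Ccne1, Foxo1 and the cell type markers were named after their values were seen. One gene of the lists is not reported here by name. Library totals in genes of 2652230 to 10241655 counts limit low genes such as Btg3.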

Additional observations from a re-analysis of the deposited data

Results flagged for a closer look

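In FosGFP+ replicate 2 the log2 ratio of Zfp36l1 to Zfp36l2, per exonic kb, was -0.309, away from -0.033, -0.0361 and -0.0639 in replicates 1, 3 and 4. The gap to the nearest of the others was a larger part of the whole range than 4 libraries of one group usually show. It was found in 26 such checks over levels and ratios, and chance flags about 1 group in 20. Zfp36l1 and Zfp36l2 stood at 205.1 and 299.9 CPM in that library, and neither level was flagged by itself.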

How the results depend on the processing

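In the first comparison Zfp36, Btg1 and Btg2 were called in the same direction in all 10 other settings and with each of 8 libraries left out. The count of all genes called was 2508, against 6019 in the 50 CPM scaling, 3863 without the most abundant genes and 1547 after subtraction of the even background. Genes called higher made up 84.7% with TMM, 33% with total counts, 11.8% in the 50 CPM scaling and 24.5% without the most abundant genes, which moved the median of all genes by -0.38, -0.59 and -0.44. Subtraction of the background moved it by -0.19. Zfp36l1 reversed with total counts, in the 50 CPM scaling and without the most abundant genes (-0.035, -0.24 and -0.093) and Zfp36l2 in the 50 CPM scaling (-0.080); the cause was not tested. Leaving out 1 library gave 1893 to 2566 calls.

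In the second comparison the count of 0 became 46 with total counts, 44 in the 50 CPM scaling, 47 without the most abundant genes, 17 after subtraction, 131 with no filter, 32 at 5 CPM, 10 with limma-voom, 69 with DESeq2 and, with a library left out, 0 to 43 (43 without FoscKO replicate 1). Total counts and the 50 CPM scaling moved the median of all genes by -0.18 and -0.19. Members called numbered 1 with total counts, the 50 CPM scaling, no abundant genes and DESeq2, 2 with no filter, and 0 to 1 with a library left out. Btg2 was then called at 1.14, 1.14, 1.17, 1.51 and 1.44, and at 1.04 without FoscKO replicate 1. With a library left out it ran from 1.04 to 1.60 and passed only there. Zfp36l1 was called with no filter (1.39). Zfp36l2 reversed with DESeq2 (0.017) and ran from -0.16 to 0.040 with a library left out. Fos reversed with total counts (-0.28), the 50 CPM scaling (-0.28), no abundant genes (-0.24), subtraction (-0.17), 5 CPM (-0.091), limma-voom (-0.13) and the replicate block (-0.13), and ran from -0.56 to 0.33 with a library left out. Causes were not tested.

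Whether the replicate numbers pair libraries by mouse is not known. Deviations of same-numbered libraries correlated at -0.007 to 0.027 in the first dataset and at 0.216, 0.024 and -0.048 in the second. With so few libraries per group these values cannot decide it. With the replicate block 2002 genes were higher and 278 lower in the first dataset, and 43 were called in the second, where Btg2 was not called. In the second dataset 1 of 3 pairs, and in the first 0 of 4, matched best with its own number. Depth limits Btg3, whose reads lay near the even background.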
